A study of Homo sapiens with 8 samples.

Results

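Among the 61806 genes counted in N/TERT cells, 10 genes of sphingosine-1-phosphate (S1P) signalling and sphingolipid metabolism are described here. They are the S1P receptors S1PR5 and S1PR2, the sphingosine kinases SPHK1 and SPHK2, the S1P phosphatase SGPP1, the S1P lyase SGPL1, the serine palmitoyltransferase subunits SPTLC1 and SPTLC2, the ceramide synthase CERS2 and the glucosylceramide synthase UGCG. Each was found by its symbol in the deposited table, and all 10 were present once. The list was chosen from the pathway with the difference between O/A and ethanol already known, S1PR5 having one of the largest decreases of all genes, so the differences of these 10 genes are given as a description, without p-values.

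N/TERT cells (N/TERT-1, wild-type immortalized human epidermal keratinocytes, 1 cell line) were grown in serum-free keratinocyte medium with epidermal growth factor and pituitary extract. 4 cultures were treated with ethanol, the solvent control, and 4 with O/A, a mixture of oligomycin, which inhibits the mitochondrial ATP synthase, and antimycin A, a blocker of respiratory complex III. The study's methods describe 4 independent experiments per condition and its legend gives a treatment of 4 hours. The sample labels state neither time nor dose. Messenger RNA was selected with oligo(dT), and between 17210404 and 20999927 reads were counted on genes per library. The keratinocyte label was checked against marker genes. The 7 basal keratinocyte markers, among them KRT5, KRT14 and TP63, were all present and summed to 3270 to 3520 FPKM (a level corrected for exon length and library size) in ethanol and 2970 to 3120 in O/A. Of 5 differentiation markers, KRT1 and LORICRIN were at 0 in every library and FLG had at most 3 counts, and the list summed to 19.5 to 21.3 FPKM in ethanol and 20.7 to 22.0 in O/A. Fibroblast, melanocyte, endothelial and leukocyte markers summed to at most 2.94, 1.81, 0.08 and 1.19 FPKM in any library. Of these markers KRT5 (log2(FC), the log2 ratio of O/A to ethanol, -0.30), KRT10 (0.47), IVL (-0.31) and CD68 (0.56) differed between conditions by the rule given below, and their part in the results was not tested. A lower transcript level here may come from fewer cells that carry the transcript or from less of it per cell, which bulk libraries cannot tell apart.

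Sphingolipids are built in the endoplasmic reticulum, where serine palmitoyltransferase joins serine with palmitoyl-CoA and ceramide synthases add a fatty acid to give, after desaturation, ceramide. Ceramide is turned into sphingomyelin, glucosylceramide or ceramide 1-phosphate, or is cut by ceramidases to sphingosine. Sphingosine kinases phosphorylate sphingosine to S1P, which acts on G protein-coupled receptors at the cell surface, and S1P is removed by phosphatases, which return sphingosine, or by the lyase, which breaks the backbone. In the epidermis, ceramides and glucosylceramides are known to be among the lipids from which the permeability barrier is made.

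The promoters of S1PR5 and S1PR2, which were lower in O/A, and of UGCG and SGPL1, which were higher, are printed so that the sequence around their starts can be set beside their expression. They run from 250 bases before to 50 bases after the RefSeq start (GRCh38.p14), 5′ to 3′ on the strand of the gene, with capitals marking matches to the motifs named below. The windows are chr19:10517916-10518215 on the minus strand for S1PR5, chr19:10231282-10231581 on the minus strand for S1PR2, chr9:111896564-111896863 on the plus strand for UGCG and chr10:70815698-70815997 on the plus strand for SGPL1.
S1PR5: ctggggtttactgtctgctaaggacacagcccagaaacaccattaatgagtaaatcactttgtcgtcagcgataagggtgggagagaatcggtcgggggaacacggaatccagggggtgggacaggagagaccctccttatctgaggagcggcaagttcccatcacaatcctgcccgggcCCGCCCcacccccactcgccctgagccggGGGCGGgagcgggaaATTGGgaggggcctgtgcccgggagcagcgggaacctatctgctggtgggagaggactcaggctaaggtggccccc
S1PR2: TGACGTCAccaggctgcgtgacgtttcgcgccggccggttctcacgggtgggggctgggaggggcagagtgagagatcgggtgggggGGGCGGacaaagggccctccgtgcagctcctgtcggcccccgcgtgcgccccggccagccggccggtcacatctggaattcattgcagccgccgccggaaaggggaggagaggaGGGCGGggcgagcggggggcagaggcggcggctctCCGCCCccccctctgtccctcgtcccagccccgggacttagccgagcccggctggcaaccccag
UGCG: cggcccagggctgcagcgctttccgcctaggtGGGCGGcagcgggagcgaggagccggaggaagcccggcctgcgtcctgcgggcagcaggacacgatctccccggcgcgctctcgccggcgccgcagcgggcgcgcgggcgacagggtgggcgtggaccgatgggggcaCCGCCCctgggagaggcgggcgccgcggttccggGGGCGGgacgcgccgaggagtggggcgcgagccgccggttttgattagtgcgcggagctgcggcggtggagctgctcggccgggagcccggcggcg
SGPL1: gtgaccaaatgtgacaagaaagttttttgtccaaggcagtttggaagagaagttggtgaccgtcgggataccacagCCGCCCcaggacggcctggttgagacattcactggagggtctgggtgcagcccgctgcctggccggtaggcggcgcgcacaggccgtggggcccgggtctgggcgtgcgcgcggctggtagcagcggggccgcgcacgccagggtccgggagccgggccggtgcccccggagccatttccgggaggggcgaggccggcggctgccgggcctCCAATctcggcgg

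On both strands, 9 motifs were searched: the CRE TGACGTCA, the C/EBP-ATF element TGATGNAA, the E-box CACGTG, the sterol element TCACNCCAC, the AP-1 element TGANTCA, the HIF core ACGTG (which also lies inside the E-box), the GC box GGGCGG, the CCAAT box and the TATA box TATAAA. The table held a promoter for 8 of the 10 genes, all except SGPP1 and CERS2. S1PR5 had 2 GC boxes and 1 CCAAT box, S1PR2 had 3 GC boxes and 1 CRE at the upstream end of the window, UGCG had 3 GC boxes, and SGPL1 had 1 GC box and 1 CCAAT box. Over 35116 promoters of this length, a GC box was found in 45.0%, a CCAAT box in 34.6% and a CRE in 1.85%, so that, of the motifs matched in these 4 promoters, the CRE of S1PR2 was the least common among all promoters. None of the 8 promoters had a match to the C/EBP-ATF element, the E-box, the sterol element or the TATA box. SPHK1 had 1 AP-1 element, found in 7.71% of all promoters, but its window lies 6620 bases inside the annotated gene start. The G and C content was 62.0% at S1PR5, 74.0% at S1PR2, 70.0% at SGPL1 and 79.0% at UGCG, against a median of 58.7% over all promoters, and UGCG had 48 CpG sites in its window, against a median of 14.

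Between O/A and ethanol, the receptors and both kinases were lower in O/A, the S1P phosphatase, the S1P lyase and glucosylceramide synthase were higher, and the serine palmitoyltransferase subunits and CERS2 stayed within the threshold. A gene was called when its adjusted p-value in edgeR's quasi-likelihood test (Benjamini-Hochberg over all genes tested) did not exceed 0.05 and its log2(FC) lay beyond 0.25 in either direction, the threshold used in the study. By this rule 7 of the 10 genes were called, where 34.7% of all 14893 genes tested were. Of these 7, 3 were higher in O/A (15.8% of all genes were called higher) and 4 were lower (18.9% of all genes were called lower). Since the list was chosen with this contrast known, nothing is read from these shares. Each of the 10 genes had at least 17 counts in every library, so the filter on low counts removed none of them. For 8 of the 10 genes the ranges of the O/A and ethanol libraries did not overlap, which was so for 47.6% of all genes tested. Called with an absolute log2(FC) above 1 were 2 of the 10 genes and 5.35% of all genes tested.

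S1PR5, a receptor of S1P best known in natural killer cells and oligodendrocytes, lies on chromosome 19 of GRCh38 from 10512742 to 10517931 on the minus strand, and its canonical transcript has 2 exons. After TMM scaling it had 7.65, 6.79, 8.60 and 7.43 CPM (counts scaled to library size) in ethanol replicates 1 to 4 and 1.27, 1.51, 0.90 and 1.03 in O/A replicates 1 to 4. The O/A libraries lay far below the ethanol libraries without overlap, and the mean in O/A was 15.5% of that in ethanol. The log2(FC) was -2.69 (standard error 0.158), at rank 6 from the lowest of the genes tested. Ethanol libraries held 121 to 158 raw counts and O/A libraries 17 to 28, and the coefficient of variation was 9.87% in ethanol and 22.7% in O/A.

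S1PR2, a receptor of S1P known to be expressed in many tissues, lies on the same chromosome from 10221433 to 10231331, also on the minus strand and also with 2 exons in its canonical transcript. It had 3.93, 3.76, 4.90 and 4.04 CPM in ethanol and 1.78, 1.62, 1.54 and 1.44 CPM in O/A. The groups did not overlap, the mean in O/A was 38.3% of that in ethanol, and the log2(FC) was -1.38 (standard error 0.167) with raw counts of 67 to 86 (ethanol) and 25 to 31 (O/A). The gene lies within the annotated span of DNMT1 over 9854 bases on the same strand, and 83 of its 3643 exonic bases are also exonic in DNMT1. DNMT1, the maintenance DNA methyltransferase, had 2165 to 2997 counts per library and a log2(FC) of -0.04 (standard error 0.0333), and how far its reads enter the count of S1PR2 was not tested.

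**Figure D1:**
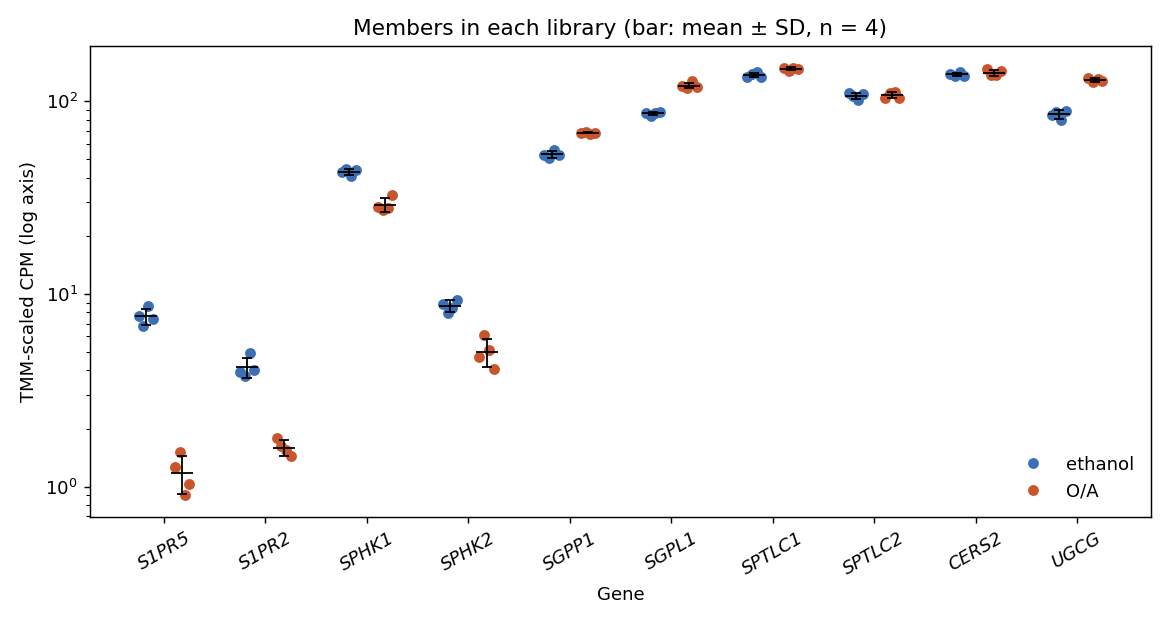
TMM-scaled CPM (log axis) of the 10 genes in the 4 ethanol libraries (blue) and the 4 O/A libraries (orange), with each point 1 library and the black bars the mean ± SD (n = 4). S1PR5 drops from 6.79 to 8.60 CPM in ethanol to 0.90 to 1.51 CPM in O/A, while the points of SPTLC2 and CERS2 overlap between conditions.

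SPHK1 and SPHK2 make S1P from sphingosine, the former mainly in the cytosol and at the plasma membrane and the latter also in the nucleus and at mitochondria. SPHK1, on chromosome 17 from 76376584 to 76387860, had 42.6, 44.3, 41.0 and 43.6 CPM in ethanol and 28.1, 27.3, 27.9 and 32.4 CPM in O/A. All O/A libraries were lower than all ethanol libraries, with O/A replicate 4 nearest to them, and the log2(FC) was -0.57 (standard error 0.0521). SPHK2, on chromosome 19 from 48619291 to 48630717, had 8.89, 7.91, 8.43 and 9.31 CPM in ethanol and 4.72, 6.09, 5.08 and 4.08 CPM in O/A. The groups did not overlap here either, and the log2(FC) was -0.79 (standard error 0.112). FPKM divides by the length of all annotated exons of a gene, here 4416 bases for SPHK1 and 6009 for SPHK2. Their canonical transcripts have 1816 and 2748 bases, so comparisons of genes by FPKM, here and below, depend on the length used. On this scale SPHK1 was 6.37 to 7.60 times the level of SPHK2 in ethanol and 6.10 to 10.8 times in O/A, and these ranges overlapped. Whether reads were counted by strand is not given in the sources used here. On the opposite strand, PRPSAP1 shares 59 of 4416 exonic bases with SPHK1 and had a log2(FC) of -0.32 (standard error 0.0562), and DBP shares 661 of 6009 exonic bases with SPHK2 and had a log2(FC) of 0.06 (standard error 0.186). Their part in the kinase counts was not tested.

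SGPP1, which dephosphorylates S1P in the endoplasmic reticulum, lies on chromosome 14 from 63684216 to 63728065. It had 52.3, 50.7, 55.9 and 52.7 CPM in ethanol and 68.4, 68.9, 67.6 and 68.3 CPM in O/A, without overlap, a log2(FC) of 0.37 (standard error 0.0401). SGPL1, which cleaves S1P irreversibly, lies on chromosome 10 from 70815905 to 70895816 and had 86.8, 83.3, 86.9 and 87.3 CPM in ethanol and 119, 117, 126 and 118 CPM in O/A. Every O/A library was above every ethanol library, and the log2(FC) was 0.48 (standard error 0.0335). The lyase was thus higher where SPHK1 was lower. The ratio of their FPKM levels, SGPL1 over SPHK1, was 0.768 ± 0.0381 (SD, n = 4) in ethanol, with SPHK1 the higher of the pair in every library, and 1.59 ± 0.141 (SD, n = 4) in O/A, with SGPL1 the higher in every library.

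SPTLC1 and SPTLC2 form the catalytic core of serine palmitoyltransferase, which catalyses the first step of sphingolipid synthesis. SPTLC1, on chromosome 9 from 92000087 to 92115413, had 133 to 141 CPM in ethanol and 143 to 148 CPM in O/A, which did not overlap, but its log2(FC) of 0.11 (standard error 0.0302) was within the threshold. SPTLC2, on chromosome 14 from 77505997 to 77616637, had 101 to 110 CPM in ethanol and 104 to 111 in O/A, which overlapped, with a log2(FC) of 0.01 (standard error 0.0339). The SPTLC1 to SPTLC2 ratio in FPKM was 1.40 to 1.61 in ethanol and 1.52 to 1.65 in O/A. It rests on annotated exonic lengths of 10589 and 12287 bases, where the canonical transcripts have 2783 and 8034. CERS2, the ceramide synthase that prefers very long acyl chains, lies on chromosome 1 from 150960583 to 150975003. It had 134 to 141 CPM in ethanol and 136 to 146 CPM in O/A, which overlapped, with a log2(FC) of 0.04 (standard error 0.0310). Of its 4643 exonic bases, 948 are also exonic in SETDB1 on the opposite strand, which had a log2(FC) of -0.20 (standard error 0.0490). The gene ENSG00000259357, also on the opposite strand, shares 778 of the 4643 bases. It had 17 to 30 counts per library and a log2(FC) of 0.19 (standard error 0.238). The part of either gene in the count of CERS2 was not tested.

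UGCG, which adds glucose to ceramide and so starts the glycosphingolipids, lies on chromosome 9 from 111896814 to 111935369. It had 84.5, 87.4, 79.2 and 89.1 CPM in ethanol and 132, 125, 130 and 127 CPM in O/A. Its O/A libraries lay well above its ethanol libraries, and its log2(FC) of 0.59 (standard error 0.0347), a ratio of means of 1.51, was the highest of the 10 genes. Relative to CERS2 in FPKM, UGCG was at 0.633 ± 0.0448 (SD, n = 4) in ethanol and 0.933 ± 0.0252 (SD, n = 4) in O/A. This ratio too depends on length, with 4567 exonic bases for UGCG and 4643 for CERS2, but 3959 and 2323 in the canonical transcripts.

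Levels in FPKM gave an order of the genes in ethanol, which depends on the annotated exonic lengths. These exceed the canonical transcripts unevenly, with 10589 against 2783 bases for SPTLC1 but 3643 in both for S1PR2. CERS2 was the highest at 29.9 ± 0.715 FPKM (SD, n = 4), followed by UGCG (18.9 ± 0.916 FPKM), SGPP1 (16.1 ± 0.716 FPKM), SPTLC1 (12.69 to 13.54 FPKM), SPHK1 (9.85 ± 0.313 FPKM), SPTLC2 (8.78 ± 0.279 FPKM) and SGPL1 (7.56 ± 0.162 FPKM). S1PR5 (2.76 ± 0.279 FPKM), SPHK2 (1.46 ± 0.0971 FPKM) and S1PR2 (1.16 ± 0.145 FPKM) were the lowest. Only SPHK2 and S1PR2 overlapped with their neighbour in this order across the 4 ethanol libraries. CERS2 exceeded 90.9% of the genes tested and S1PR2 25.5%. In O/A, SGPL1 at 10.2 ± 0.309 FPKM stood above SPTLC2 and SPHK1, and S1PR5 at 0.41 ± 0.0963 FPKM was the lowest, next to S1PR2 at 0.43 ± 0.0392 FPKM (SD, n = 4), with which it overlapped.

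The remaining S1P receptors were listed from general knowledge together with other genes of the pathway. S1PR1, the receptor known for lymphocyte egress and endothelial barrier function, was the most abundant receptor in ethanol and fell in O/A, from 4.14 to 4.30 FPKM in ethanol to 1.17 to 1.36 FPKM in O/A (log2(FC) -1.70 with a standard error of 0.0791, and adjusted p = 1.24e-24 by edgeR). S1PR3 had 1.85 to 2.10 FPKM in ethanol and 1.45 to 1.77 FPKM in O/A, which did not overlap, but its log2(FC) of -0.20 was within the threshold (adjusted p = 0.00526 by edgeR, standard error 0.0618). Without O/A replicate 2, the lowest of the O/A libraries, it was -0.12 (adjusted p = 0.0926 by edgeR). S1PR4 had 4 to 13 counts per library, too few to be tested. Summed over the 5 receptors, the level was 9.91 to 10.9 FPKM in ethanol and 3.81 to 4.20 FPKM in O/A. S1PR5 made up 26.8% ± 1.67 (SD, n = 4) of this sum in ethanol and 10.1% ± 2.02 (SD, n = 4) in O/A, whereas S1PR2 made up 11.2% ± 0.865 and 10.7% ± 0.911, shares that overlapped. The sum, the shares and the order of the receptors in FPKM depend on their annotated exonic lengths, such as 5223 bases for S1PR1 and 13702 for S1PR3.

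**Figure D2:**
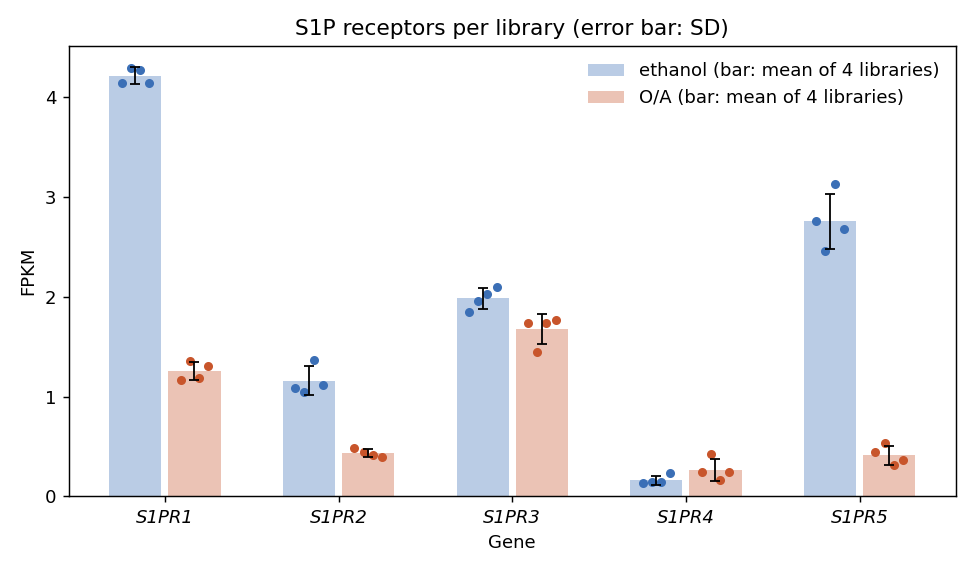
FPKM of the 5 S1P receptor genes in ethanol (blue) and O/A (orange), with each point 1 library, each bar the mean of 4 libraries and each error bar the SD. S1PR1, S1PR2 and S1PR5 are lower in all O/A libraries, S1PR3 differs least among the tested receptors, and S1PR4 lies near 0 in both conditions.

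Outside the 10 genes, 59 further genes of the pathway were listed by role and 49 had enough counts to be tested. They were not listed by how they moved, but earlier results of these data were known. Of these 49, 11 were upregulated and 9 downregulated in O/A, 40.8% in all, against the 34.7% of all genes tested given above, and their median log2(FC) was 0.08, against 0.00 over all genes. Adjusted p-values in this paragraph and the next are from edgeR's quasi-likelihood test, over all genes tested, unless another tool is named. In de novo synthesis 2 of 7 tested genes rose and 1 fell: KDSR, the ketosphinganine reductase, rose by a log2(FC) of 0.45 ± 0.0313 (SE; adjusted p = 1.00e-17), and DEGS1, the dihydroceramide desaturase, had -0.29 ± 0.0378 (SE; adjusted p = 4.35e-09). The other gene that rose was ORMDL1 (log2(FC) 0.26, adjusted p = 1.53e-06), just past the threshold and named after its values were seen. Among the other ceramide synthases 1 of 4 tested was called, namely CERS3, which makes the ultra-long ceramides of the epidermal barrier and rose from 3.32 ± 0.185 to 4.99 ± 0.0881 FPKM (SD, n = 4), a log2(FC) of 0.63 (adjusted p = 8.86e-13). In ceramide transfer, phosphorylation and sphingomyelin synthesis 3 of 6 genes rose and 1 fell. The 3 that rose were SAMD8, which makes ceramide phosphoethanolamine (log2(FC) 0.64, adjusted p = 7.94e-20), and the sphingomyelin synthases SGMS1 (0.58, adjusted p = 4.10e-16) and SGMS2 (0.58, adjusted p = 4.94e-22), the last 2 being named after their values were seen. CERK, the ceramide kinase, fell from 6.09 ± 0.127 to 3.59 ± 0.376 FPKM (log2(FC) -0.72, adjusted p = 3.04e-14).

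In glycosphingolipid synthesis and transfer 1 of 9 tested genes rose and 4 fell. B4GALT5, which extends glucosylceramide to lactosylceramide, rose (log2(FC) 0.47, adjusted p = 8.15e-20). ST3GAL5, which makes the ganglioside GM3 from lactosylceramide, fell (log2(FC) -0.73, adjusted p = 1.65e-09). The other genes that fell, named after their values were seen, were B4GALT6 (-0.55), A4GALT (-0.55) and B4GALNT1 (-0.50). The ethanol and O/A libraries of B4GALNT1 overlapped. In glycosphingolipid breakdown 1 of 9 tested genes was called, HEXA, a subunit of the lysosomal hexosaminidases (log2(FC) 0.27, adjusted p = 6.11e-07). Among ceramidases 2 of 4 tested genes rose, ACER2, an alkaline ceramidase of the Golgi (log2(FC) 0.45, adjusted p = 4.21e-06), and the neutral ceramidase ASAH2 (0.33, adjusted p = 0.0272), which had only 70 to 104 counts per library and was not called by DESeq2 (adjusted p = 0.0625). Among sphingomyelinases 1 of 3 was called, SMPD4, which fell (log2(FC) -0.28, adjusted p = 1.08e-09). The phosphatase PLPP1 rose (log2(FC) 0.40, adjusted p = 6.60e-05) and ALDH3A2, which oxidizes the aldehyde that the lyase releases, fell (log2(FC) -0.26, adjusted p = 1.01e-07). For S1P export, MFSD2B was tested and not called (log2(FC) 0.08, adjusted p = 0.825), and SPNS2 had 1 to 11 counts per library, too few to be tested. Leaving out 1 library ended 3 of these calls: without ethanol replicate 3, HEXA was at 0.25 and ALDH3A2 at -0.21. Without O/A replicate 2, ALDH3A2 was at -0.25. ASAH2 had an adjusted p of 0.0925 without O/A replicate 3 and of 0.0619 without ethanol replicate 4, both by edgeR. The genes named after their values were seen were not followed in these fits.

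**Figure D3:**
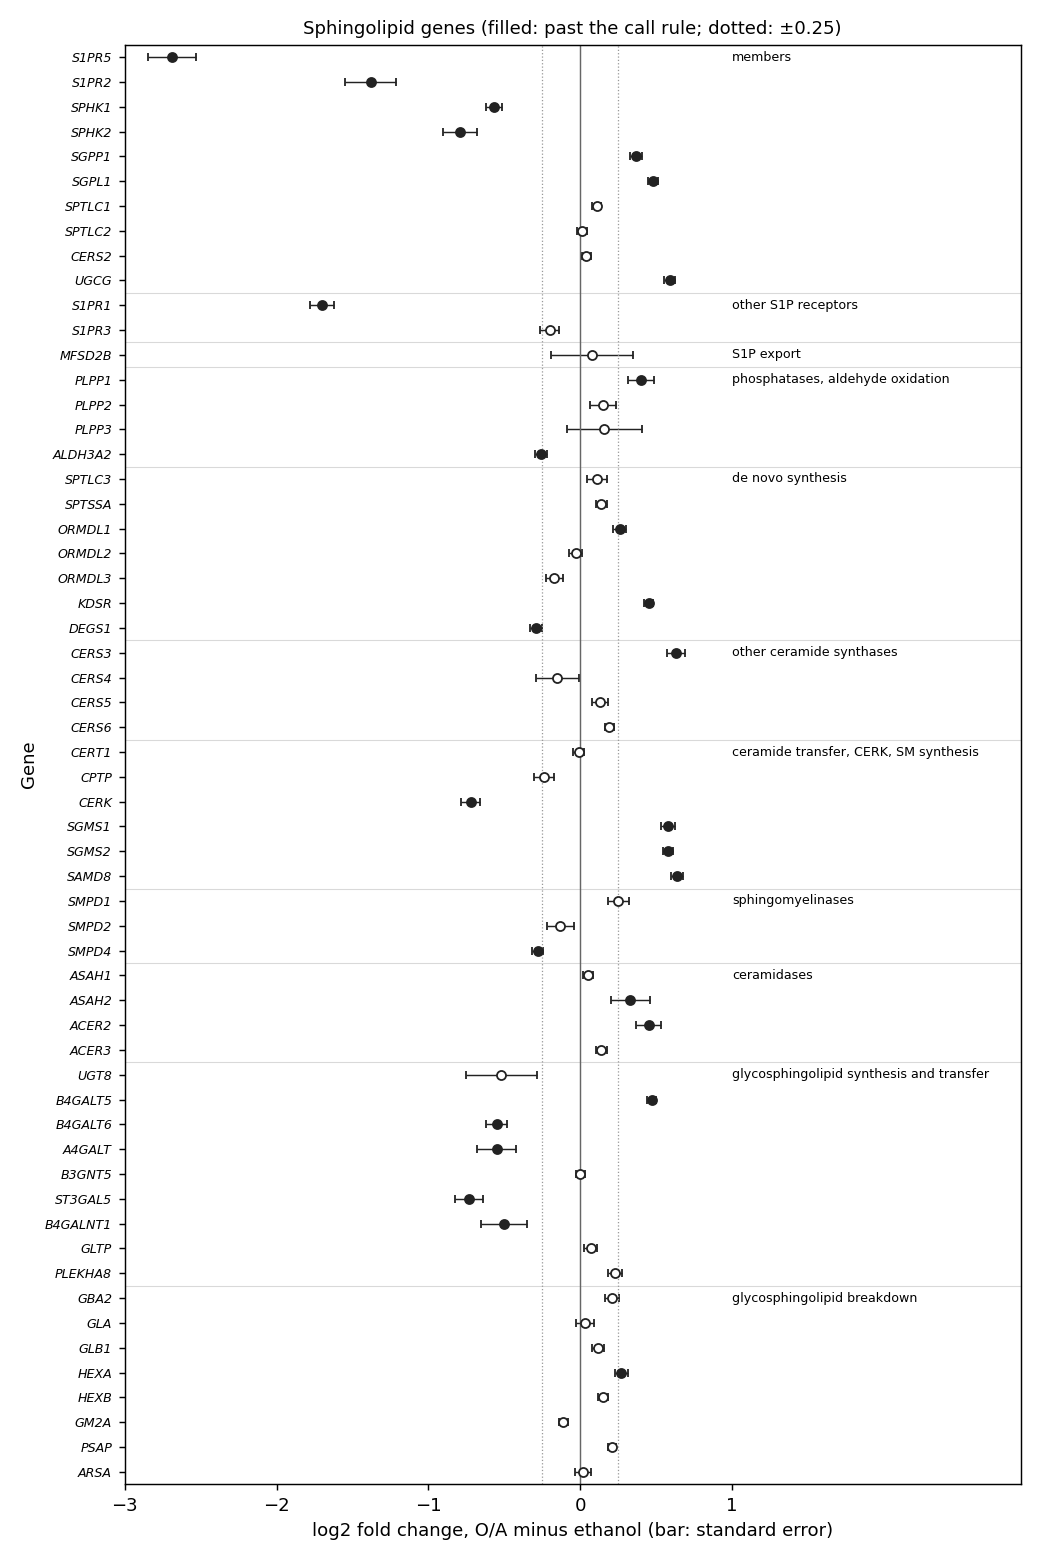
log2(FC) of O/A against ethanol for the 10 genes and other tested genes of the pathway, grouped by role, with bars for the standard error, filled symbols for called genes and dotted lines at the threshold of 0.25. S1PR5, S1PR1 and S1PR2 lie far to the left of all others, from -2.69 to -1.38, and no gene lies above 0.64.

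S1PR2 and S1PR5 lie 291 kb apart, and their surroundings were examined to place their differences. Between them 21 genes are listed and 12 were tested, of which 1 rose and 3 fell, with a median log2(FC) of -0.16. KEAP1, the inhibitor of NRF2 and the tested gene next to S1PR5 on that side, fell with a log2(FC) of -0.35 (adjusted p = 2.99e-08 by edgeR), and ATG4D, an autophagy protease on the outer side, rose (0.42, adjusted p = 1.63e-06). ICAM1, an adhesion molecule of inflamed epithelium, rose (1.13, adjusted p = 2.27e-19), and PDE4A, a cAMP phosphodiesterase with 9 to 39 counts per library, fell (-0.98, adjusted p = 0.00109, but -0.15 and not called on log2(FPKM + 1)). The unnamed gene ENSG00000274425 fell (-1.68, adjusted p = 8.65e-11). Its annotated span overlaps those of RAVER1 and ICAM3, and that of PDE4A overlaps CDC37, so reads there may be shared between genes. The other 8 genes between the receptors were not called, with a log2(FC) of -0.13 for MRPL4, -0.44 for ICAM5, 0.39 for ZGLP1, 0.11 for FDX2, -0.20 for RAVER1, -0.21 for ICAM3, 0.08 for TYK2 and -0.01 for CDC37. The 4 called of 12 are to be read beside the 34.7% called over all genes tested, a similar share, so the count is no result about this region.

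Over the 8 libraries, the genes whose log2(CPM + 1) correlated best with that of S1PR5, among 11645 other genes with a mean of at least 1 FPKM in one condition, were GPN2 (r = 0.9988), TCTN2 (r = 0.9983), ZFP30 (r = 0.9981), TLCD3A (r = 0.9981) and CAND1 (r = 0.9979). All 5 were lower in O/A, with log2(FC) from -0.30 for CAND1 to -1.11 for ZFP30, smaller decreases than that of S1PR5. These correlations are a description, since all genes share the same libraries and the same 2 conditions, and 2156 genes (18.5%) had r above 0.9.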

How the data were processed

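The series holds 8 mRNA-seq libraries, 4 from ethanol and 4 from O/A. Groups and replicate numbers were taken from the sample titles. Per the submitters' notes and the paper, the authors aligned reads to GRCh38.p13 with HISAT2 2.0.1 and counted them per gene with HTSeq 0.6.1. The counts were deposited without normalization. The Ensembl release and the strand setting are not given in the sources used here. The FPKM values were deposited by the authors beside the counts and were used without TMM scaling. A table of the authors' DESeq2 comparison, holding fold changes and p-values, was not used.

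Counts were fitted with edgeR 4.0.16 (TMM scaling, robust quasi-likelihood test) in R 4.3.3 after keeping the 14893 genes that reached 10 counts in 4 or more libraries. Standard errors are the log2(FC) divided by the square root of the F statistic. The test was checked on simulated data. Alternatives were DESeq2 1.42.0, limma 3.58.1 on log2(FPKM + 0.1) and log2(FPKM + 1), median-ratio scaling, no filter, the replicate number as a block, other fold thresholds and each library left out. Within a condition, libraries differed beyond sampling noise (chi-square per degree of freedom 1.78 to 5.95), so none was a copy.

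The 10 genes and the lists were chosen with earlier results of these data known. The other pathway genes were listed from general knowledge by role and not by how they moved, though those earlier results were known. Named are the 10 genes, the other receptors, the called genes with the highest and lowest log2(FC) in each role, the genes from S1PR2 to S1PR5 and the 5 genes most correlated with S1PR5. 1 of the other pathway genes enters the counts but is not reported here by name. Promoter sequences are from RefSeq (GRCh38.p14), whose chromosome coordinates are those of GRCh38, and exons from GENCODE, where all 10 genes had the deposited start and end.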

Additional observations from a re-analysis of the deposited data

Results flagged for a closer look

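In 6 of 88 groups of 4 libraries of 1 gene and condition, 1 library lay far from the other 3 relative to their range, where chance gives about 1 in 20 (4.4 groups). Values are TMM-scaled CPM. O/A replicate 4 had 32.4 for SPHK1, where the remaining O/A libraries had 27.3 to 28.1, and it was still below every ethanol library. SGPL1 had 83.3 in ethanol replicate 2, against 86.8 to 87.3, and 126 in O/A replicate 3, against 117 to 119. S1PR3 had 20.1 in O/A replicate 2, against 24.3 to 24.8. B4GALT5 had 148 in ethanol replicate 3, against 140 to 141, and KEAP1 had 37.1 in ethanol replicate 1, against 38.5 to 38.8. The cause of these gaps was not tested.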

How the results depend on the processing

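The 7 calls among the 10 genes held, in number and in direction, under DESeq2, both FPKM scales, median-ratio scaling, no filter, the replicate block and each of the 8 fits without 1 library. Counts moved with the fold threshold: without one, 7999 of all genes and 34 of the other pathway genes passed, and above an absolute log2(FC) of 1 it was 797 of all genes, 2 of the 10 and 1 of the others. On log2(FPKM + 1), which understates changes of low genes, S1PR5 had -1.41, S1PR2 -0.59 and SPHK2 -0.44. Values near 0 changed sign. SPTLC2 had -0.03 on log2(FPKM + 0.1) and on log2(FPKM + 1) and, with each library omitted in turn, ranged from -0.00451 to 0.03. CERS2 had -0.01 on both FPKM scales. Over all genes, the median shift in log2(FC) was -0.045 on log2(FPKM + 0.1) and -0.042 on log2(FPKM + 1). Both FPKM scales were used without the TMM factors, which were 1.012 to 1.022 in ethanol and 0.982 to 0.988 in O/A. With each library omitted in turn, FDX2 ranged from -0.04 to 0.22 and CDC37 from -0.02 to 0.02. The cause was not tested. Calls of HEXA, ALDH3A2, ASAH2 and PDE4A were lost in some settings, PDE4A only on log2(FPKM + 1), at -0.15. ICAM5, not called at -0.44, was called in 3 fits without 1 library, at -0.56 (ethanol replicate 2), -0.59 (O/A replicate 4) and -0.62 (O/A replicate 3). HEXA was at 0.22 on log2(FPKM + 0.1) and ALDH3A2 at -0.21 without ethanol replicate 3, and ASAH2 had an adjusted p of 0.0925 without O/A replicate 3.

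No pairing by replicate number was detected, with correlations of deviations between same-numbered libraries of 0.0496, -0.00387, -0.0336 and 0.0826, and 3 of the 8 libraries correlated best with their own number. With 4 libraries per condition this cannot show that pairing was absent. With the replicate block 5160 genes were called, 7 of the 10 and 20 of the other pathway genes. Depth limits S1PR5 and S1PR2 in O/A and leaves S1PR4 and SPNS2 untested.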
